A study of Mus musculus with 4 samples.

Results

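Whether catalase loss altered the liver's response to a high-fat diet was described from the diet by genotype interaction, the diet effect in knockout liver minus the diet effect in wild-type liver, per gene. The series holds liver total RNA of male mice on 4 Agilent 1-colour oligonucleotide arrays labelled with Cy3, with 1 array per group. The groups were wild type on normal diet (18% of calories from fat), wild type on high-fat diet (60.3%), catalase knockout on normal diet and catalase knockout on high-fat diet, each fed for 11 weeks between 29 and 40 weeks of age. The labels give no strain, no details of the knockout allele and no statement of whether a sample was 1 animal or a pool. Of 20882 genes named on the array, 13547 had a probe well above background on all 4 arrays by the scanner's flag and entered the comparison. The other 7335 did not, 1775 of them being well above background on 1 to 3 arrays.

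Catalase is the peroxisomal enzyme that splits hydrogen peroxide into water and oxygen, and hydrogen peroxide is made in liver by peroxisomal fatty acid oxidation, among other sources. A high-fat diet loads hepatocytes with fatty acids, activates the lipid-sensing receptor PPARalpha and its target genes, fills lipid droplets and can bring inflammatory macrophages into the liver. Where 2 such perturbations act separately, their log2 effects are taken here to add. That is a choice of scale, and adding signals instead is set beside it below. A combined effect short of the sum is called saturated here, one beyond what either perturbation gave is called synergistic, and an effect that turns round under the other perturbation is called reversed.

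Values are given as scaled log2 signal, the log2 processed signal of a probe minus its array's 75th percentile, always in the order normal diet then high-fat diet. An interaction of at least 1 on the log2 scale, 2-fold, was counted as non-additive, and the words rose and fell are kept for a difference between 2 arrays of at least 2-fold. These are rules of size. With 1 array per group an interaction leaves no residual degree of freedom, so no test was possible and no p-value is given. A value after ± is the error that the scanner's own model assigns to the interaction. It comes from measuring spots, and biological spread is not in it. The median scanner error of an interaction was 0.29, and 677 of the 678 non-additive genes exceeded 2 of their own scanner errors. The size rule of 1 already lies above 2 errors of that median size, so this is no separate support for them.

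The targeted gene was read first. Cat gave 4.89 and 4.75 in wild type and 1.13 and 0.95 in knockout. It fell in knockout on both diets, by 3.76 on normal and by 3.81 on high-fat diet, and its interaction was -0.05 ± 0.29, so loss of the transcript was the same on both diets within scanner error. A further Cat probe gave an interaction of -0.22. The tissue label was checked against hepatocyte markers, of which 20 of 21 were measured on all 4 arrays, with a summed signal of 4814, 4542, 4509 and 3748 times the array's 75th percentile in wild type on normal and high-fat diet and knockout on normal and high-fat diet. The arrays had 23757 to 25184 of 39429 probes well above background, most on the knockout high-fat array, whose 75th percentile signal of 1152 was also the highest (the other 3 lay at 1002 to 1019). All 4 arrays lay on 1 slide and in 1 scan.

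Non-additivity at 2-fold was found for 678 genes (5% of 13547). The interaction was positive for 505 (3.73%) and negative for 173 (1.28%), and it reached 4-fold for 47 and 24 genes. Over all measured genes its median was -0.04, with quartiles at -0.22 and 0.19. The split by direction depended on the scaling. With each array centred on its median, all interactions moved by -0.20 and 308 genes were positive against 297 negative, 50.9% positive in place of 74.5%, while quantile normalization, cyclic loess and another background correction gave 66.2%, 70.3% and 71.3%. Dim genes were non-additive more often than bright ones. With genes split by mean signal into 4 equal groups, 10.7% were non-additive in the dimmest, and in the others 5.31%, 2.24% and 1.74% in order of brightness. Of 90 non-additive genes with a further measured probe, 79 had the same sign on it and 50 were also 2-fold, against 71.3% of the same sign over all 3349 measured genes with a further probe.

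Of all measured genes, 2.39% differed 2-fold with diet in wild type, 4.42% with diet in knockout, 2.13% with knockout on normal diet and 2.61% with knockout on high-fat diet. Knockout on high-fat diet against wild type on normal diet, both perturbations together, gave 5.82%, with 3.16% higher and 2.66% lower. The 678 genes fell into 6 classes by the size of these differences. Synergistic genes numbered 126 (0.93% of measured genes), 110 with a positive and 16 with a negative interaction. Saturated genes numbered 70 (0.517%), and reversed genes 13 (0.096%). A diet effect in wild type that was under 2-fold in knockout marked 64 genes (0.472%), and a knockout effect on normal diet that was under 2-fold on high-fat diet marked 71 (0.524%). The other 334 (2.47%) met none of these, and 157 of them had no pairwise difference of 2-fold within a genotype or within a diet, so that their interaction was the sum of smaller differences of opposite sign. Since all effects come from the same 4 arrays, a class is also a statement about which array stands apart. Of the 70 saturated genes 57 had the wild-type normal-diet array 2-fold away from 3 arrays that lay within 2-fold of each other, and of the 126 synergistic genes 116 had the knockout high-fat array apart in this way. A response of a condition and a value particular to that 1 sample cannot be told apart here.

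**Figure D1:**
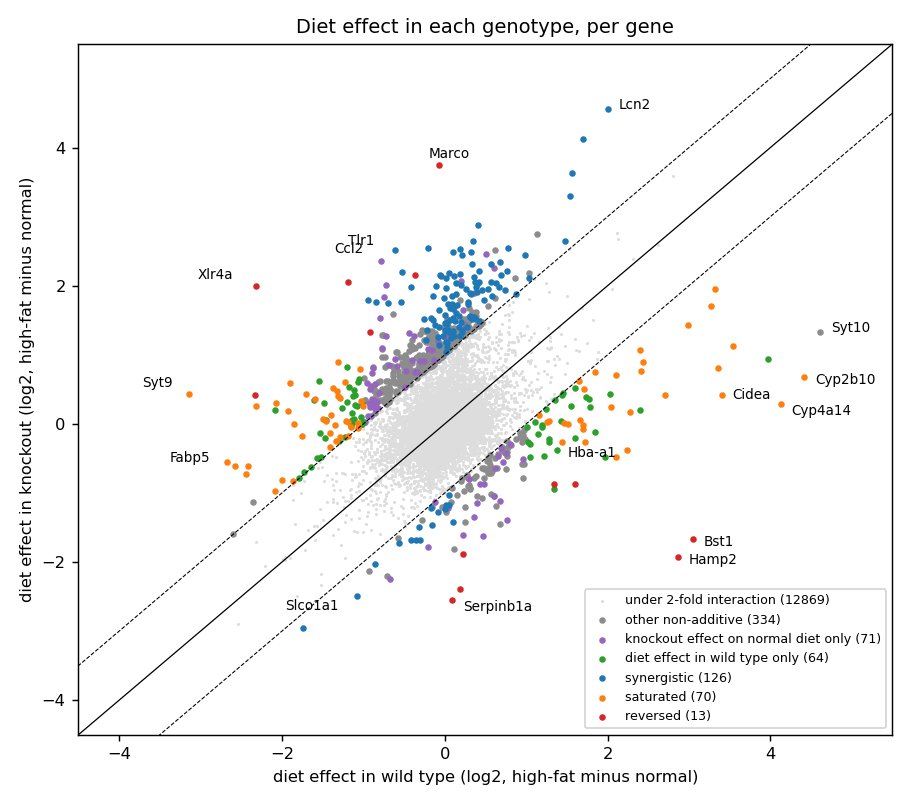
Diet effect in wild type (x axis) against diet effect in catalase knockout (y axis), both as log2 difference of high-fat minus normal diet, for 13547 genes. The solid line marks equal effects, the dashed lines an interaction of 2-fold, and colours the classes of the 678 genes outside them; Cyp4a14, Cyp2b10 and Cidea lie far right near 0 on the y axis, and Hamp2 and Bst1 lie below 0 on it.

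**Figure D2:**
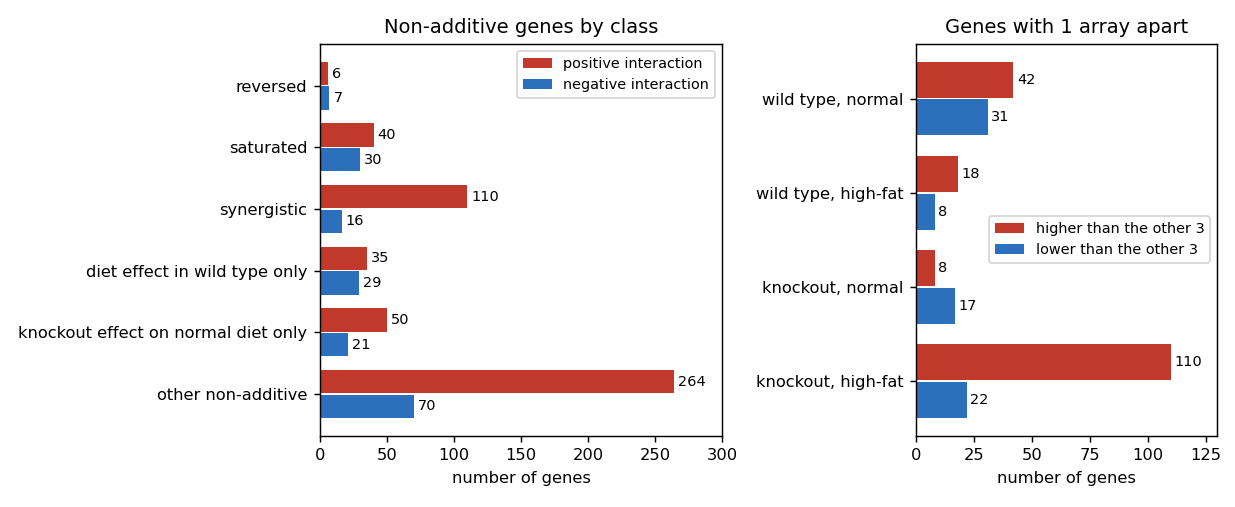
Left, number of non-additive genes in each class by sign of the interaction. Right, over all measured genes, the number for which 1 array lay at least 2-fold from 3 arrays that were within 2-fold of each other; the knockout high-fat array had the most, 110 higher and 22 lower.

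Hepcidin gave the most negative interaction. Hepcidin is the liver peptide hormone that blocks iron export from cells by binding ferroportin, and mice have 2 hepcidin genes, Hamp and Hamp2, side by side on chromosome 7. Hamp2 gave 1.41 and 4.27 in wild type and 5.10 and 3.17 in knockout. It was thus lowest in wild type on normal diet and highest in knockout on normal diet. It rose with diet in wild type by 2.86 and fell with diet in knockout by 1.92, so the diet effect reversed, and the interaction was -4.79 ± 0.29. Hamp gave 5.52 and 5.88 in wild type and 6.62 and 5.28 in knockout. Only the knockout effect on normal diet (1.10) and the diet effect in knockout (a drop by 1.35) reached 2-fold, and its interaction was -1.71 ± 0.29. Both genes were therefore highest in knockout on normal diet. Of the 22 measured genes for iron handling, 1 had a positive 2-fold interaction (Tfrc, the transferrin receptor, 1.19 ± 0.09, and 0.99 with median scaling) and 2 a negative one, these 2 hepcidin genes. Over all measured genes 3.73% had a positive and 1.28% a negative 2-fold interaction. The median of the list was -0.03. Hamp2 was also a member of the female-biased list below.

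The promoters of the 2 hepcidin genes are shown because both genes moved together in knockout liver while their diet effects in wild type differed in size. Hepcidin transcription is known to answer to inflammation through STAT3 and to iron through BMP and SMAD signalling. The sequences are from RefSeq, assembly GRCm38.p6, with 250 bases before and 50 after the start of each gene, 5′ to 3′ on the gene's strand. Hamp lies at chr7:30943980-30944279 and Hamp2 at chr7:30924132-30924431, both on the minus strand. Capitals mark matches to 3 motifs searched on both strands: TTCNNNGAA, the STAT form, TGANTCA, the AP-1 form, and GGCGCC, a core of BMP-responsive elements.
Hamp: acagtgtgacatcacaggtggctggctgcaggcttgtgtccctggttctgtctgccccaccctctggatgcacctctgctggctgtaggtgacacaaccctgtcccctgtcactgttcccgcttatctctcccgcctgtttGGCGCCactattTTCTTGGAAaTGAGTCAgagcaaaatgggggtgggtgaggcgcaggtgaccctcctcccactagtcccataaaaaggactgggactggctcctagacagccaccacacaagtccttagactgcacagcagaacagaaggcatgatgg
Hamp2: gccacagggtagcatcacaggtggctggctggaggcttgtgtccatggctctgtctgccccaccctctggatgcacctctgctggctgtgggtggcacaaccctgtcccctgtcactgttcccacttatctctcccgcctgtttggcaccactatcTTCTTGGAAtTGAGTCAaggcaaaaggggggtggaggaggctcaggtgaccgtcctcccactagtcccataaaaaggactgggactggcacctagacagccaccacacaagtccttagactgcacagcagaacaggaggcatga
The windows were identical at 276 of 297 aligned bases (92.9%). TTCNNNGAA began 97 bases before the start in Hamp and 94 in Hamp2, and TGANTCA 87 and 84 bases before it. GGCGCC was found in Hamp, 109 bases before the start. Among 32851 promoter windows of this length, 8.30% held TTCNNNGAA, 7.81% TGANTCA and 11.9% GGCGCC.

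Of the 13 reversed genes, 4 reversed by diet, 12 by genotype and 3 in both ways. Those with a negative interaction had, like Hamp2, the knockout high-fat array below the knockout normal-diet array. Bst1, an ectoenzyme that makes cyclic ADP-ribose, gave -4.95 and -1.90 in wild type and -3.21 and -4.88 in knockout, an interaction of -4.72 ± 0.39. Serpinb1a, an inhibitor of neutrophil proteases, gave 0.79 and 0.88 in wild type and 2.11 and -0.44 in knockout, an interaction of -2.64 ± 0.29. Serpinb1a was thus nearly level in wild type and fell with diet in knockout. Its close paralog Serpinb1c, whose transcripts a probe may share, gave -2.57 ± 0.45. Ciart, a repressor of the circadian clock, gave -1.67 and -0.06 in wild type and -0.30 and -1.17 in knockout, an interaction of -2.48 ± 0.29. Lrtm1, a leucine-rich repeat membrane protein, had an interaction of -2.10 ± 0.29. Taar7f, a trace amine receptor gene named after its value was seen, was the seventh, at -2.22 ± 0.47 from dim signals.

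The reversed genes with a positive interaction had the knockout high-fat array above the knockout normal-diet array. Marco, a scavenger receptor of Kupffer cells that takes up particles and bacteria, gave 1.38 and 1.31 in wild type and 0.19 and 3.94 in knockout. The wild-type arrays were level, knockout was lower than wild type on normal diet by 1.18 and higher on high-fat diet by 2.63, and the interaction was 3.81 ± 0.29. Lpl, the lipase that frees fatty acids from circulating triglyceride, gave -0.63 and -0.99 in wild type and -1.90 and 0.26 in knockout, an interaction of 2.52 ± 0.29 that was 2.90 on a further probe. Nrg1, a ligand of ERBB receptors, had 3.25 ± 0.35, and its knockout high-fat value of -1.51 was the highest of its 4. Xlr4a, of an X-linked lymphocyte-regulated gene cluster whose copies may share a probe, gave -2.38 and -4.70 in wild type and -4.91 and -2.91 in knockout, an interaction of 4.32 ± 0.40. Cib3, a calcium-binding protein, had 2.75 ± 0.29. Adcy5, an adenylyl cyclase, had 2.24 ± 0.32 on its brightest probe and -0.66 on a further one, so its 2 probes disagree.

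**Figure D3:**
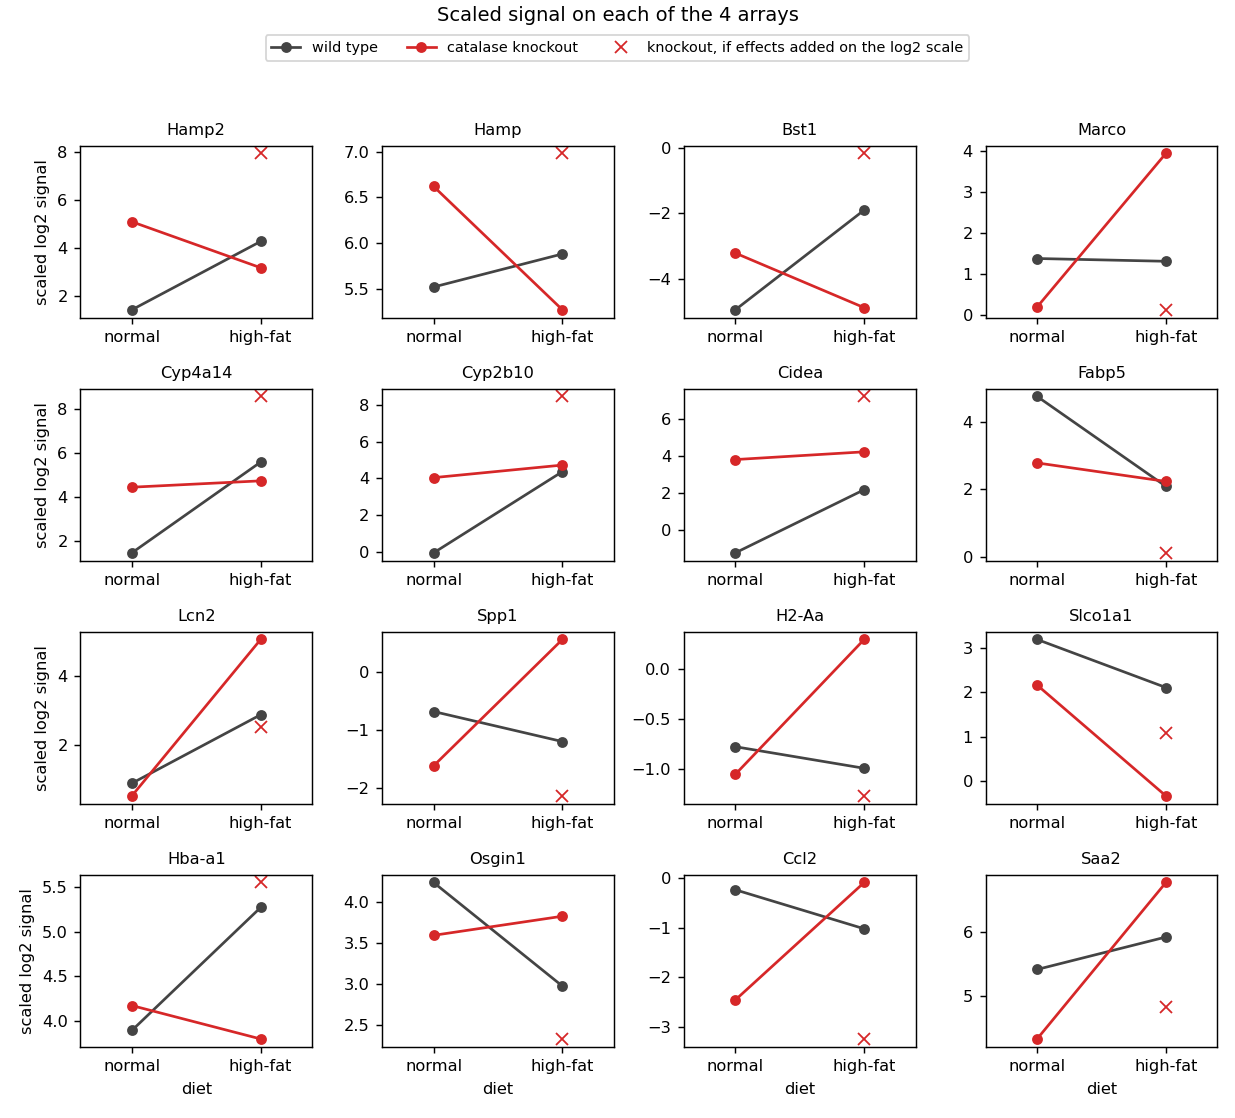
Scaled log2 signal (y axis, a separate range in each panel) by diet (x axis) for 16 genes, in wild type (grey) and catalase knockout (red), 1 array per point. Crosses mark where knockout on high-fat diet would lie if diet and knockout effects added on the log2 scale; for Cyp4a14, Cyp2b10 and Cidea the cross lies far above the red point, and for Lcn2, Spp1 and H2-Aa below it.

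Cyp4a14, Cyp2b10 and Cidea had the most negative interactions among the saturated increases. In 30 genes both diet in wild type and catalase loss on normal diet raised the signal at least 2-fold, while both together gave much less than the sum. Cyp4a14, a PPARalpha target that hydroxylates the end carbon of fatty acids, gave 1.47 and 5.60 in wild type and 4.46 and 4.75 in knockout. Cyp2b10, the P450 induced through the receptor CAR, gave -0.04 and 4.37 in wild type and 4.05 and 4.73 in knockout. Cidea, which fuses lipid droplets, gave -1.21 and 2.20 in wild type and 3.82 and 4.23 in knockout. In all 3 genes the wild-type normal-diet array was low and the other 3 arrays were high, and in Cidea the wild-type high-fat array lay between. Their interactions were -3.84 ± 0.29, -3.73 ± 0.29 and -2.99 ± 0.29.

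The PPARalpha targets as a list held 6 of the saturated increases. Of 35 measured targets, 10 rose with diet in wild type (1.11% of all measured genes rose), 4 rose with diet in knockout (3.34% of all), 7 rose with catalase loss on normal diet (0.797%) and 0 on high-fat diet (1.67%), while none of the 35 fell in any of these 4 comparisons. The 6 were Cyp4a14, Cyp4a10, Cyp4a31, Cyp4a32, Acot3 and Cd36, and no member had a positive 2-fold interaction. Cyp4a10 gave 3.53 and 5.24 in wild type and 4.89 and 4.81 in knockout, an interaction of -1.78 ± 0.29 with further probes at -1.85 to -1.04. Cyp4a10, Cyp4a31 and Cyp4a32 are near-identical neighbours, and their probes may not tell them apart. Acot3, a peroxisomal thioesterase that releases fatty acids from CoA, gave -1.67 and 0.76 in wild type and 0.31 and 1.21 in knockout, an interaction of -1.53 ± 0.29, and -1.99 on a further probe. Cd36, a fatty acid uptake receptor, had -1.10 ± 0.29. Enzymes of mitochondrial fatty acid oxidation and ketogenesis, several of them PPARalpha targets too, showed small negative interactions. Of 25 members 24 were below 0 and none was at 2-fold, against 55.6% of all measured genes below 0. The median was -0.31, and -0.18 after cyclic loess, -0.21 after quantile normalization and -0.50 with median scaling. This was not particular to these enzymes, as 33 of 35 oxidative phosphorylation genes and 18 of 20 hepatocyte markers were also below 0.

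The lipid droplet and steatosis list had 22 measured members. With diet 8 of them rose in wild type (1.11% of all measured genes rose) and 6 in knockout (3.34%). With catalase loss 6 rose and 1 fell on normal diet (0.797% and 1.33%), and 4 rose on high-fat diet (1.67%). Among the 22, 5 were saturated increases (0.221% of all measured genes). Plin4, a droplet coat protein, gave -1.23 and 2.04 in wild type and 1.08 and 2.78 in knockout, an interaction of -1.57 ± 0.29. Vldlr, which takes up triglyceride-rich lipoproteins, gave -3.03 and -0.32 in wild type and -0.66 and -0.23 in knockout, an interaction of -2.28 ± 0.30. Cidec, a droplet protein related to Cidea, gave 0.12 and 3.44 in wild type and 2.75 and 4.71 in knockout, an interaction of -1.37 ± 0.29 that was -0.65 on a further probe. Vldlr was level over the 3 arrays other than wild type on normal diet, whereas Plin4 and Cidec rose with diet in both genotypes and so were only partly saturated. Mogat1, an acyltransferase of triglyceride synthesis, had -1.39 ± 0.29. Lipe, a triglyceride and cholesterol ester lipase, was, beside Lpl, the list's other positive 2-fold interaction, at 1.02 ± 0.33, and the list held 1 positive in place of 2 under each of the other normalizations and background correction.

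Genes higher in female than in male liver included 4 saturated increases. Their sex bias follows the pattern of growth hormone release. Of 28 listed, 16 were measured. With diet in wild type 7 of these rose and 2 fell (1.11% and 1.28% of all measured genes). With diet in knockout 1 rose and 2 fell (3.34% and 1.08%). With catalase loss 7 rose on normal diet (0.797%), and on high-fat diet 0 rose and 3 fell (1.67% and 0.937%). The list held 6 negative 2-fold interactions (1.28%) and no positive one (3.73%), with a median of -0.70. The organic anion transporter Slc22a27 gave -3.23 and 0.31 in wild type and -0.73 and 0.40 in knockout, an interaction of -2.41 ± 0.30, and its relatives Slc22a29, which was not on the list, and Slc22a26 had -2.55 ± 0.30 and -1.98 ± 0.42 (Slc22a26 -0.82 with another background correction). Cyp2b10, Hamp2, Acot3 and Atp6v0d2 were the other non-additive members. Beyond the measured genes, Cyp2b9 gave 0.22 in wild type on high-fat diet and -0.14 and 0.87 in knockout, and Cyp2b13 0.90 and then 0.26 and 1.87, and neither was well above background in wild type on normal diet, where they read -5.50 and -5.39. Hao2, a peroxisomal oxidase that makes hydrogen peroxide, gave -2.74 in wild type on high-fat diet and -2.98 and -3.68 in knockout and was likewise not well above background in wild type on normal diet. These 3 were named after their values were seen.

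Other saturated increases had separate roles. Slc2a4, the insulin-responsive glucose transporter, gave -3.85 and -1.61 in wild type and -1.45 and -1.83 in knockout, an interaction of -2.62 ± 0.10. Krt23, a keratin, gave -0.67 and 1.43 in wild type and 1.33 and 0.86 in knockout, an interaction of -2.58 ± 0.29. Both were low on the wild-type normal-diet array alone. Usp2, a clock-controlled deubiquitinase, gave 0.90 and 2.34 in wild type and 2.35 and 2.08 in knockout, an interaction of -1.70 ± 0.29, and the mitotic kinase Wee1 had -1.03 ± 0.29 (-0.99 after cyclic loess and -0.90 with normexp background correction). With Ciart they were the 3 circadian genes of 19 measured that were non-additive, beside 5% of all measured genes. The median of the circadian list was -0.52, with 16 of 19 below 0, while Nr1d1, a core clock repressor, fell with diet in both genotypes and had -0.23. The hour of tissue collection is not given in the sources used here, so its part in these values was not tested.

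What counts as saturated depends on the scale on which effects are taken to add. If signals rather than log2 signals add, the expected combined signal is the wild-type high-fat signal plus the knockout normal-diet signal minus the wild-type normal-diet signal. Over the 30 saturated increases the observed rise in knockout on high-fat diet over wild type on normal diet had a median of 2.14, against 3.94 expected by adding log2 effects and 2.82 expected by adding signals. On that linear scale 5 of the 30 stayed 2-fold below the expectation. Cyp4a14 was among them at -1.34, while Cyp2b10 at -0.45 and Cidea at 0.04 were not. Of 126 synergistic genes 124 stayed 2-fold non-additive with the same sign on the linear scale, as did 10 of the 13 reversed genes.

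**Figure D4:**
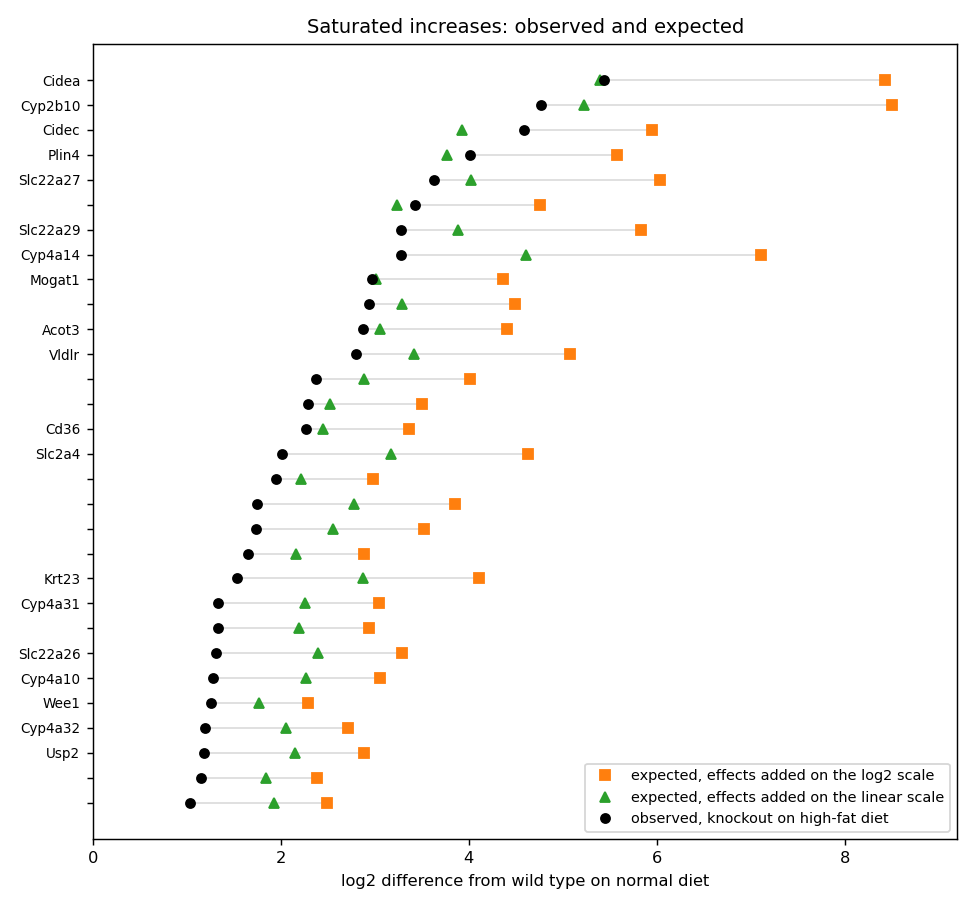
Log2 difference from wild type on normal diet (x axis) for the 30 saturated increases (y axis, with the genes described in the text labelled). Black points are the observed knockout high-fat values, orange squares the sum of the log2 effects and green triangles the sum of the signals; all black points lie left of their orange squares, and for Cidea, Cidec and Plin4 the black point lies at or right of the green triangle.

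Saturated decreases numbered 40. Both single perturbations lowered these genes, and the combination did not lower them by the sum. Fabp5, a fatty acid binding protein of macrophages and epithelia, gave 4.76 and 2.09 in wild type and 2.79 and 2.24 in knockout, an interaction of 2.12 ± 0.29. Syt9, a synaptotagmin, gave -1.87 and -5.01 in wild type and -5.18 and -4.75 in knockout, an interaction of 3.58 ± 0.46. In both the wild-type normal-diet array was high and the other 3 were low. B9d1, a ciliary transition-zone protein, had 2.58 ± 0.33, Supt7l, a transcription coactivator subunit, 2.50 ± 0.43, and Antxrl, an anthrax-toxin-receptor-like gene, 2.38 ± 0.36. Tff3, a mucosal trefoil peptide, gave -0.32 and -2.02 in wild type and -3.51 and -3.08 in knockout, an interaction of 2.14 ± 0.31. Asns, the asparagine synthetase induced by ATF4, gave 0.23 and -2.22 in wild type and -0.99 and -1.72 in knockout, an interaction of 1.72 ± 0.29, and Igfbp1, an insulin-repressed binding protein, gave 5.78 and 4.77 in wild type and 3.35 and 3.61 in knockout, an interaction of 1.26 ± 0.29. Cxcl1, a neutrophil-attracting chemokine, gave 3.61 and 2.23 in wild type and 0.83 and 1.36 in knockout, an interaction of 1.90 ± 0.29. For all 40 the expected signal on the linear scale was 0 or less. That follows from the class rule, which asks for a fall of at least 2-fold with each single perturbation.

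In the 110 synergistic increases the knockout high-fat array stood above the other 3. The gene lists held 30 of them, with 6 on the macrophage list, 5 on the lipid-associated macrophage list and 3 on the neutrophil list. Itgax, the integrin chain CD11c of dendritic cells and lipid-laden macrophages, gave -3.76 and -3.35 in wild type and -4.13 and -1.25 in knockout, an interaction of 2.47 ± 0.35. Spp1, osteopontin, gave -0.68 and -1.20 in wild type and -1.62 and 0.57 in knockout, an interaction of 2.72 ± 0.29. Tlr1, a receptor for bacterial lipopeptides, gave -4.44 and -5.05 in wild type and -4.72 and -2.20 in knockout, an interaction of 3.13 ± 0.43. In wild type none of these 3 rose with diet.

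Macrophage and Kupffer cell markers had 24 of 25 members measured, and 24 of the 24 had an interaction above 0. At 2-fold, 11 were positive and 0 negative (3.73% and 1.28% of all genes), the median was 0.96 (0.76 with median scaling, under which 22 of 24 were above 0), and 6 of the 11 were synergistic. None rose with diet in wild type (1.11% of all measured genes), 16 rose with diet in knockout (3.34%) and 7 with catalase loss on high-fat diet (1.67%). Ms4a7, a membrane protein of macrophages, gave -2.24 and -2.14 in wild type and -2.59 and -0.11 in knockout, an interaction of 2.38 ± 0.29. Adgre1, the F4/80 antigen, gave -0.22 and 0.16 in wild type and -0.36 and 1.61 in knockout, an interaction of 1.60 ± 0.29. Markers of resident Kupffer cells ranged widely, with 3.81 for Marco, 1.23 for Timd4, 1.22 for Cd5l, 0.77 for Folr2, 0.62 for Vsig4 and 0.22 for Clec4f. The summed signal of the 24 markers was 69.6 and 83.1 times the 75th percentile in wild type and 60.1 and 146 in knockout. In bulk liver RNA more cells of a type and more RNA per cell cannot be told apart. The part that a larger share of macrophages had in the genes below was not tested.

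Of 13 measured genes of lipid-associated macrophages, the cells that gather around dying fat-laden cells, 8 had a positive 2-fold interaction (3.73% of all measured genes) and 2 a negative one (1.28%). The median of the 13 was 1.56. Trem2, their lipid-sensing receptor, gave -2.46 and -1.78 in wild type and -2.60 and -0.26 in knockout, an interaction of 1.66 ± 0.30. Cd36 and Atp6v0d2 were the 2 negative members, so the list did not move as a whole. Gpnmb, a glycoprotein of these cells, was well above background on the knockout high-fat array alone, at -2.16. The list's summed signal, 123 and 106 in wild type and 112 and 122 in knockout, did not follow the order of most of its members, and Fabp5, at 4.76, was highest in wild type on normal diet.

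Neutrophil genes were measured for 7 of 14 members, 4 of them with a positive 2-fold interaction (3.73% of all measured genes). With normexp background correction 3 had one. Csf3r and Elane, also among the 7, had interactions of -0.0003 and -0.15. S100a8 and S100a9 form calprotectin, a metal-binding protein of neutrophils and inflammatory monocytes. S100a9 gave 0.23 and 0.44 in wild type and -0.66 and 1.79 in knockout, and S100a8 gave -1.60 and -1.28 in wild type and -2.48 and 0.00 in knockout. Both were lowest in knockout on normal diet and highest in knockout on high-fat diet, with interactions of 2.24 ± 0.29 and 2.16 ± 0.29. Ly6g, Mmp8 and Mmp9, which define or arm neutrophils, were not among the 7. Mpo, a granule enzyme, was well above background on both knockout arrays alone, at -3.66 and -3.55. The median of the 7 was 1.76, and 1.00 with another background correction. Their summed signal was 62.6 and 69.3 in wild type and 59.0 and 68.9 in knockout. The part of neutrophil number in the synergistic class was not tested.

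Chemokines, cytokines and adhesion genes had 27 of 39 members measured. A positive 2-fold interaction was found for 13 (3.73% of all measured genes) and a negative one for 0 (1.28%), at a median of 0.81. Of the 27, 6 were synergistic. The summed signal of the list was 35.6 and 25.6 in wild type and 21.4 and 26.4 in knockout, highest in wild type on normal diet. Ccl2, which draws monocytes through the receptor CCR2, gave -0.24 and -1.02 in wild type and -2.46 and -0.09 in knockout, an interaction of 3.15 ± 0.09. Ccl2 differed from the macrophage markers in that its knockout normal-diet array was low and the other 3 were within 2-fold of each other. Cxcl13, a B-cell chemokine, gave -3.26 and -3.95 in wild type and -3.35 and -1.60 in knockout, an interaction of 2.44 ± 0.34. Ccl4 had 2.34 ± 0.39, and Icam1, the leukocyte adhesion ligand, 1.85 ± 0.36. Il6 and Tnf were not well above background on all 4 arrays. T and NK cell genes, 11 of 18 measured, held no 2-fold interaction, and their summed signal ran 50.5 and 45.2 in wild type and 33.1 and 30.0 in knockout.

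MHC class II genes, which present peptides to CD4+ T cells, were all 8 measured, and 7 had a positive 2-fold interaction (3.73% of all measured genes), at 1.09 to 1.57. That count depended on the scaling. It was 2 of 8 with median scaling, 8 of 8 after quantile normalization or cyclic loess and 5 of 8 with normexp background correction, and all 8 members stayed above 0 under each of these. The median was 1.17, and 0.97 with median scaling. None of the 8 rose with diet in wild type (1.11% of all measured genes) and 6 rose in knockout (3.34%). H2-Aa gave -0.78 and -0.99 in wild type and -1.06 and 0.30 in knockout, an interaction of 1.57 ± 0.29. H2-Eb1 gave 2.63 and 2.50 in wild type and 2.40 and 3.46 in knockout, an interaction of 1.19 ± 0.29. Ciita, the coactivator that switches the group on, had 1.27 ± 0.44, and 0.74 with another background correction. The lysosomal protease Ctss was the eighth, at 0.92. The promoters of 3 members are shown because the group moved together, and class II promoters carry a Y box, an inverted CCAAT bound by NF-Y beside the X box where the RFX complex docks Ciita. They are from RefSeq, assembly GRCm38.p6, H2-Aa at chr17:34287774-34288073 on the minus strand, H2-Eb1 at chr17:34305617-34305916 and H2-DMb1 at chr17:34152941-34153240 on the plus strand, with CCAAT on either strand in capitals.
H2-Aa: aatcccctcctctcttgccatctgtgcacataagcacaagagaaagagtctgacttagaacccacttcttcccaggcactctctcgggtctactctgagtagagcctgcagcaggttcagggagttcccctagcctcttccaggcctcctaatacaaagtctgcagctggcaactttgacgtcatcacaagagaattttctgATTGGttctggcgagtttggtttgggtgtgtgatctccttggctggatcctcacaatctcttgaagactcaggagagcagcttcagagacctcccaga
H2-Eb1: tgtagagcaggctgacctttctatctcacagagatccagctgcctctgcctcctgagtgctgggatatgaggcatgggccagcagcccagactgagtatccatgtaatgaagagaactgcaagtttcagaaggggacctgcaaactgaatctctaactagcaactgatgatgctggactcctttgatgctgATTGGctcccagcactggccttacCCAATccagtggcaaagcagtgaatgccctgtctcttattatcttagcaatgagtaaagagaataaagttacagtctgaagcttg
H2-DMb1: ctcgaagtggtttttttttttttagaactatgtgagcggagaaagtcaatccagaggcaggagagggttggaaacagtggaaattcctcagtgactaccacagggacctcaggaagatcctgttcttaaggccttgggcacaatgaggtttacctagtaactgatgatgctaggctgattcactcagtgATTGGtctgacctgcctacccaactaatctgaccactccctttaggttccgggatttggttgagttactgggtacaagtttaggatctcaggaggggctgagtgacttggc
CCAAT lay on the reverse strand 48 bases before the start in H2-Aa, 59 in H2-Eb1 and 61 in H2-DMb1, with a forward match 35 bases before the start in H2-Eb1. Of all 32851 promoter windows, 37.4% held CCAAT on either strand.

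**Figure D5:**
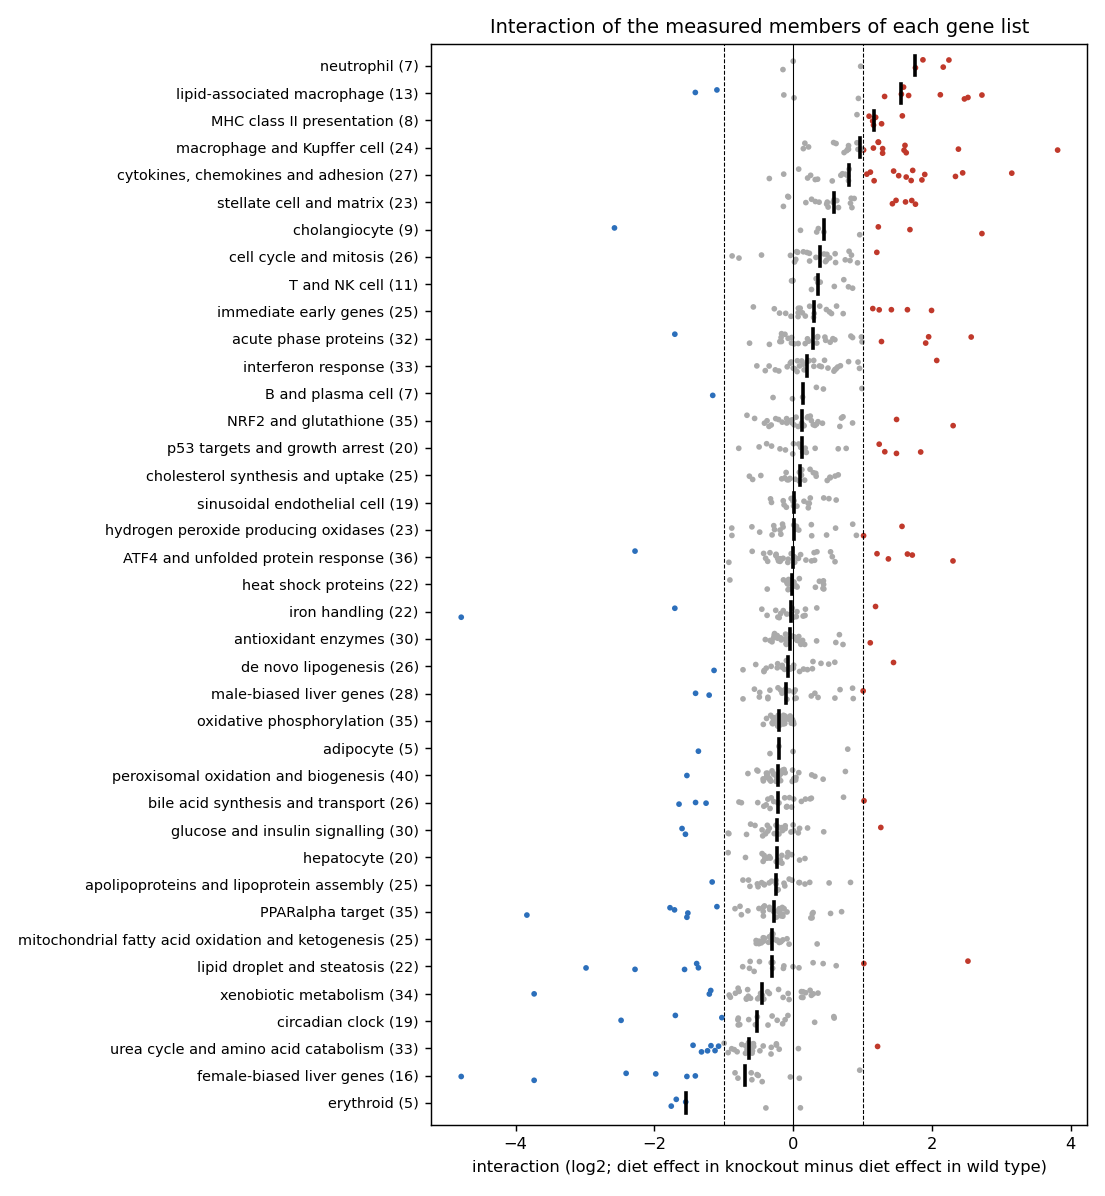
Interaction (x axis, log2, diet effect in knockout minus diet effect in wild type) of each measured member of each gene list (y axis, number measured in brackets, lists of at least 5). Black bars are list medians, dashed lines mark 2-fold, and points beyond them are red or blue; macrophage, MHC class II and cytokine lists lie right of 0, and erythroid, female-biased and urea cycle lists left of it.

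Of 23 measured matrix and marker genes of stellate cells, 5 had a positive and 0 a negative 2-fold interaction (3.73% and 1.28% of all measured genes). The median of the 23 was 0.59. Of the 5, 2 were synergistic, and Mmp14 was highest in wild type on normal diet. Col3a1, a fibrillar collagen chain, gave 0.16 and 0.52 in wild type and -0.34 and 1.79 in knockout, an interaction of 1.76 ± 0.29. Col1a1 gave -1.88 and -0.75 in wild type and -2.51 and 0.24 in knockout, an interaction of 1.62 ± 0.29, and it rose with diet in both genotypes. Timp1, an inhibitor of matrix-degrading proteases, was not well above background in knockout on normal diet and read -1.43 in knockout on high-fat diet against -5.04 and -3.48 in wild type. The summed signal of the list was 210 and 222 in wild type and 192 and 234 in knockout. Sinusoidal endothelial genes, all 19 measured, held no 2-fold interaction and a median of 0.01.

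Further genes with a positive interaction came from other lists or from none. Lcn2, an iron-scavenging acute phase protein in the synergistic class, gave 0.87 and 2.87 in wild type and 0.50 and 5.07 in knockout. It rose with diet in both genotypes, by 2.00 and 4.57, and its interaction was 2.56 ± 0.29. Saa1 and Saa2, the acute phase serum amyloids, whose near-identical sequences may share a probe, were outside that class. Both were lowest in knockout on normal diet and highest in knockout on high-fat diet. Saa2 gave 5.41 and 5.92 in wild type and 4.32 and 6.78 in knockout, an interaction of 1.95 ± 0.29, and Saa1 had 1.91 ± 0.29. They were 2 of 4 positive members among 32 acute phase proteins, with Hamp the 1 negative (3.73% and 1.28% of all measured genes). Cbr3, a synergistic gene and a carbonyl reductase under NRF2, gave -1.76 and -1.41 in wild type and -0.99 and 1.66 in knockout. Its interaction was 2.30 ± 0.29. It was 1 of 2 non-additive genes among 35 of the NRF2 and glutathione list, near the 5% of all measured genes. Psat1, of serine synthesis, had 2.30 ± 0.40. Ubd, an inflammation-induced ubiquitin-like protein, gave -2.95 and -1.39 in wild type and -3.25 and 0.38 in knockout, an interaction of 2.07 ± 0.31. It was the 1 non-additive gene of 33 interferon-response genes (5% of all measured genes were non-additive), whose median was 0.20 and 0.00 with median scaling. Myoc, Asb2 and Cela1 had 2.76 ± 0.46, 2.74 ± 0.37 and 2.60 ± 0.34, all in the synergistic class.

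Synergistic decreases numbered 16, of which 5 were on a gene list. Hsd3b5, a steroid reductase of male liver, gave 5.88 and 4.15 in wild type and 4.18 and 1.23 in knockout. Slco1a1, an organic anion transporter of male liver, gave 3.18 and 2.11 in wild type and 2.16 and -0.32 in knockout. Both fell with each perturbation and fell further with both, with interactions of -1.21 ± 0.29 and -1.41 ± 0.29. They were the 2 of the 16 whose expected signal on the linear scale was 0 or less, so they were not synergistic on that scale. The other 14 stayed 2-fold below the linear expectation. Over 28 measured male-biased genes, 10 fell with diet in wild type (1.28% of all genes fell) and 10 with diet in knockout (1.08%). With catalase loss 5 fell on normal diet (1.33%) and 6 on high-fat diet (0.937%). A negative 2-fold interaction was found for 2 (1.28% of all genes) and a positive one for 1 (3.73%). The positive count was 0 under each other normalization or background correction. Moxd1, a male-specific monooxygenase relative, read 1.52 and -3.63 in wild type and was not well above background on either knockout array. The anion transporter Slc22a7 had -1.19 ± 0.29, the leukotriene hydroxylase Cyp4f14 -1.17 ± 0.29 and the sulfotransferase Sult2a8 -1.04 ± 0.29.

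Amino acid catabolism in hepatocytes had mostly negative interactions. Of 33 urea cycle and amino acid genes, all measured, 31 were below 0 (55.6% of all measured genes). The median was -0.64 (-0.51 after cyclic loess and -0.84 with median scaling). A negative 2-fold interaction was found for 6 (1.28% of all measured genes) and a positive one for 1 (3.73%). With median scaling 11 were negative, and with the other normalizations and background correction 5 or 6. In knockout 7 fell with diet (1.08% of all measured genes), against 1 in wild type (1.28%). Agxt, which clears peroxisomal glyoxylate, gave 6.35 and 6.35 in wild type and 6.47 and 5.23 in knockout, an interaction of -1.24 ± 0.29. Oat, the ornithine aminotransferase, gave 5.86 and 6.26 in wild type and 6.27 and 5.22 in knockout, an interaction of -1.44 ± 0.29. Etnppl, a phosphoethanolamine lyase, gave 4.08 and 3.72 in wild type and 4.23 and 2.56 in knockout, an interaction of -1.32 ± 0.29. In all 3 the knockout high-fat array was lowest and the other 3 were within 2-fold of each other. Got1, Ahcy and Hpd had -1.19, -1.13 and -1.08. Csad, of taurine synthesis, went the other way at 1.22 ± 0.29. On the knockout high-fat array the hepatocyte marker sum was also the lowest and the macrophage marker sum the highest of the 4 arrays. The hepatocyte list had a median interaction of -0.23, and its part in these values was not tested.

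Some genes answered to diet in wild type and not, at 2-fold, in knockout. Of 64, 29 had a negative interaction, having risen in wild type, and 35 a positive one, having fallen. Globins, the chains of haemoglobin, were among those that rose. Hba-a1 gave 3.89 and 5.27 in wild type and 4.17 and 3.80 in knockout, an interaction of -1.76 ± 0.29, and Hba-a2, Hbb-b2 and Hbb-bs had -1.69, -1.55 and -1.50. The wild-type high-fat array was high in all 4. Of 8 erythroid genes 5 were measured, 3 of them these globins (Hbb-bs was not listed), and their summed signal was 98.2 and 203 in wild type and 115 and 80.7 in knockout. Globin copies may share a probe, and the part of blood left in the tissue was not tested. Dnm1, a dynamin, had -3.04 ± 0.34 on its brightest probe and -0.05 on a further one.

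Among those that fell in wild type alone, Chmp4b, an ESCRT subunit, gave 3.51 and 1.42 in wild type and 3.51 and 3.70 in knockout, an interaction of 2.28 ± 0.29. Its further probes gave 0.57 to 0.68. Osgin1, an NRF2 target induced by oxidative stress, gave 4.23 and 2.98 in wild type and 3.59 and 3.83 in knockout, an interaction of 1.49 ± 0.29. Cd207, langerin, gave -0.87 and -2.01 in wild type and -0.92 and -0.76 in knockout, an interaction of 1.30 ± 0.29. In these genes the wild-type high-fat array was the lowest of the 4. Mmp14, a membrane protease, had 1.71 ± 0.30 and Nedd9, a scaffold protein, 2.17 ± 0.34, and both were also lower in knockout than in wild type on normal diet.

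Genes that answered to catalase loss on normal diet and not, at 2-fold, on high-fat diet numbered 71, of which 50 were lowered on normal diet and had a positive interaction. Immediate early genes, which respond within minutes to growth factors and stress, were 4 of them. Of 25 measured, 6 fell with catalase loss on normal diet (1.33% of all measured genes) and 2 on high-fat diet (0.937%). With diet in wild type 4 fell (1.28%). A positive 2-fold interaction was found for 5 (3.73%, and for 3 of the 25 with normexp background correction) and a negative one for 0 (1.28%). Atf3, a stress-induced transcription factor, gave -2.37 and -1.75 in wild type and -3.77 and -1.51 in knockout, an interaction of 1.65 ± 0.33. Dusp2, a MAP kinase phosphatase, had 1.99 ± 0.31, and Btg2, an antiproliferative gene, 1.24 ± 0.29. For Atf3 the knockout normal-diet array was the low one. Xlr3b, a neighbour of Xlr4a in the same X-linked cluster, gave 0.33 and -0.40 in wild type and -1.73 and 0.28 in knockout, an interaction of 2.73 ± 0.29, and 2.49 on a further probe. Of the 21 with a negative interaction, Nek2, a mitotic kinase, gave -4.30 and -4.51 in wild type and -1.78 and -3.57 in knockout, an interaction of -1.57 ± 0.37.

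The remaining 334 genes met the 2-fold interaction without one of these patterns. Il2rg, the shared cytokine receptor chain, gave -3.09 and -3.73 in wild type and -3.98 and -2.38 in knockout, an interaction of 2.23 ± 0.32. Cd34, a stem and endothelial cell sialomucin, had 2.05 ± 0.29 and Gdf15, a stress hormone, 1.49 ± 0.29. Syt10, a synaptotagmin, gave -2.65 and 1.96 in wild type and -4.20 and -2.86 in knockout, an interaction of -3.27 ± 0.32. Its wild-type high-fat array was far above the others, and it rose with diet in both genotypes. Slco1a4, a bile acid and anion transporter, had -1.65 ± 0.29, and Ppp1r3c, a glycogen-targeting phosphatase subunit, -1.55 ± 0.29. Nearest to the size rule, Tmem176a at 1.0014 and Uhrf1 at 1.0010 lay just inside it and Sec61a2 and Rgs19, both at 0.999, just outside. On the negative side Sap130 at -1.0004 and Cc2d2a at -1.0052 lay inside and Syt1 at -0.997 and Cth at -0.995 outside.

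Some lists held few or no non-additive genes, beside 5% over all measured genes. Cholesterol synthesis and uptake genes, all 25 measured, fell with diet in wild type for 15 members (1.28% of all measured genes) and in knockout for 10 (1.08%). None rose with diet, and none had a 2-fold interaction. Sqle, an oxygen-requiring step of sterol synthesis, gave 4.07 and 1.75 in wild type and 2.88 and 1.16 in knockout, an interaction of 0.60 ± 0.29. Antioxidant enzymes other than Cat, 30 measured, held 1 non-additive gene, Gpx7, an endoplasmic reticulum peroxidase, at 1.11 ± 0.34 and at 0.91 to 0.96 under the 3 other scalings and 0.59 with normexp background correction. Of 35 oxidative phosphorylation genes none reached 2-fold, with a median of -0.21, which was -0.09 after cyclic loess or quantile normalization and -0.40 with median scaling. Among 22 heat shock genes none reached 2-fold, and 1 did with median scaling, although Hspa1a was lower in knockout by 3.27 on normal and by 2.84 on high-fat diet, at -0.20 and -0.75 in wild type and -3.47 and -3.59 in knockout. Peroxisomal oxidation and biogenesis genes, 40 measured, had 1 non-additive member, Acot3.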

How the data were processed

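The deposited scanner output gives the intensity of each spot on a linear scale, background-subtracted and with an error, made by Feature Extraction 11.5.1.1, per the file headers. Per the series' design text, the authors extracted data with GeneSpring GX 7.3, and their settings are not stated in what was used here. The authors' deposited value table held linear, uncentred intensity that matched the probe means of the scanner files within 1% for 99.8% of probes per array, with column medians of 79.9, 75.9, 72.4 and 89.2.

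Control spots and outlier-flagged spots were left out, spots of a probe were averaged as log2 of the deposited signal, and levels were set relative to the 75th percentile of the 39429 probes on that array. No spot was saturated. Accessions matched to RefSeq genes (GRCm38.p6) named 27502 probes and left 11927 unnamed. Of 20882 genes, 5510 had more than 1 probe and took the one with the highest mean log2 signal.

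A gene was reversed if the 2 diet effects, or the 2 knockout effects, had opposite signs and were both 2-fold. It was saturated if diet in wild type and knockout on normal diet were 2-fold the same way, as was the combination, which fell 2-fold short of their sum. It was synergistic if knockout on high-fat diet was 2-fold beyond each of the other 3 groups it was compared with, in the direction of the interaction, with no 2-fold single effect against it. Classes were assigned in this order. The classification was run on simulated arrays with planted effects above the size rule and scanner-error noise alone. All 40 genes planted per class were recovered, and 33 additive genes of the 13547 genes run were called. Biological spread was not in the simulation, so it checks the class rules only and gives no support for the classes found.

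Named genes were Cat, up to 8 per class and direction that stayed 2-fold under median scaling, quantile normalization, cyclic loess and normexp with offset 50, up to 4 per list by size, and the 2 nearest the threshold on each side. Probes with only a locus or clone name were not considered, and several other genes of the lists were chosen for naming with their values in view. Some genes are not reported here. The members and the 41 gene lists (28 pathways, 13 cell type markers) were chosen with earlier results of these data known, and lists share genes. Normexp was planned on mean spot signals but used the median signals that the files hold. Normalizations ran in limma 3.58.1 under R 4.3.3, and the rest in Python 3.11.15 (pandas 2.3.3, numpy 2.4.6, matplotlib 3.10.9). With 1 array per group their number limits the precision. Alternatives changed the scaling, background, filter, probe rule, flags, values, scale of additivity and thresholds.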

Additional observations from a re-analysis of the deposited data

Results flagged for a closer look

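In 12 reversed genes either diet moved the 2 genotypes opposite ways or catalase loss moved the gene opposite ways on the 2 diets. With 1 array per group the difference was not tested. The interactions were 4.32 for Xlr4a, 3.81 for Marco, 3.25 for Nrg1, 2.75 for Cib3, 2.52 for Lpl and 2.24 for Adcy5, and -4.79 for Hamp2, -4.72 for Bst1, -2.64 for Serpinb1a, -2.57 for Serpinb1c, -2.48 for Ciart and -2.10 for Lrtm1. Of these, Hamp2, Bst1 and Xlr4a are the 3 that reversed both by diet and by genotype. Outside the named genes, 199 of 5243 unnamed probes well above background on all 4 arrays had a 2-fold interaction (3.80%), 130 positive and 69 negative.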

How the results depend on the processing

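No paired analysis was possible because each group had 1 array, and for the same reason no array could be left out. Of 1944 alternative values of named genes, none reversed, 1894 kept their side of 2-fold, 41 dropped below it and 9 passed it. That agreement was partly fixed by how the genes were chosen. Genes named for a class had to stay 2-fold under median scaling, quantile normalization, cyclic loess and normexp, which are among the alternatives counted. A changed background filter could not alter a gene already well above background on every array. The count is therefore no separate support for the named genes. Normexp background correction lowered every count, to 231 positive and 93 negative interactions, 5 reversed, 39 saturated, 64 synergistic, 23 with a diet effect in wild type only, 29 with a knockout effect on normal diet only and 164 others. Of its 324 non-additive genes 319 were among the 678. Median scaling gave 308 positive and 297 negative. Without a background filter the counts were 1678 positive, 864 negative, 232 reversed, 486 saturated, 396 synergistic, 352, 371 and 705 in the same order of classes. With genes well above background on at least 1 array, dim arrays set to a floor, they were 796, 371, 31, 180, 222, 155 and 153. On the linear scale of additivity 5 genes were saturated and 503 fell in no pattern. Under the other alternatives each class count stayed within 1.5 times. The list medians of neutrophil and muscle genes moved to 1.00 and -0.38 with normexp. The other list medians moved by less than 0.29, the median scanner error of an interaction, under each other normalization or background correction. Signal over background limits dim genes most.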

Other observations

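Of the 1775 genes well above background on 1 to 3 arrays, which differ between arrays by how they were chosen, 27.5% had a 2-fold interaction with dim arrays set to a floor, 291 positive and 198 negative, which gives only bounded values. Of the 43 list members among them, 19 did. Cxcr2, the chemokine receptor of neutrophils, was well above background in wild type on high-fat diet and in knockout on normal diet, at -4.95 and -2.57, and not on the other 2 arrays. With the floor its interaction was -3.74, opposite in sign to that of S100a8 and S100a9. Cd79a, a B-cell receptor chain, was well above background in wild type on normal diet alone, at -3.07. Over all lists, 121 of the 828 list genes measured were non-additive, beside 678 of all 13547 measured genes (5%). The lists were chosen with earlier results of these data known, so this difference is partly built in.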
